A study of Mus musculus with 18 samples.

Results

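In mouse larynges exposed to cigarette smoke, e-cigarette aerosol or room air, 10 genes of the clade B serpin family were followed. They were Serpinb11, Serpinb3a, Serpinb12, Serpinb2, Serpinb5, Serpinb1a, Serpinb8, Serpinb10, Serpinb6a and Serpinb9, chosen by name from the family with earlier results of these counts known. These are 10 of the 54532 genes in the count table, and all 10 were among the 17537 genes with enough counts to test. Because the choice was made with results in view, their exposure contrasts are given as a description that supports nothing further, and each adjusted p serves to place a gene among all genes tested. All mice were male C57BL6/J animals aged 8 to 9 weeks, and exposure was of the whole body, in an inhalation chamber, at 1 hour daily for 5 days of each week through 4 weeks. The smoke group breathed smoke of 3R4F research cigarettes, the e-cigarette group breathed JUUL Virginia tobacco aerosol, and the air group breathed room air. Each group had 6 libraries, made from total RNA of whole larynges. Nothing in the labels ties each library to 1 animal, so each p speaks of the spread among the libraries alone, which may be technical.

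Serpins are protease inhibitors that work as suicide substrates: the target protease cuts a flexible reactive centre loop, and the serpin then snaps into a new fold that traps the enzyme. Clade B serpins lack a classical signal peptide and act mostly inside cells, where they protect the cell from its own or a neighbour's proteases, and a few members have lost inhibition altogether. Stratified squamous epithelium, which lines the vocal folds and the laryngeal inlet, is a known site of expression for many of them, while others serve leukocytes.

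In the annotation of the table, 7 of the genes lie on chromosome 1 and 3 on chromosome 13, on mouse build GRCm38, and the start and end of 10 of 10 equal those of GENCODE release M21. The chromosome 1 cluster spans 749.3 kb and holds 12 clade B genes, in the order Serpinb5 (chr1:106861173-106883348, plus strand), Serpinb12 (chr1:106934449-106957080, plus), Serpinb3a (chr1:107045587-107052303, minus), Serpinb11 (chr1:107361198-107380475, plus), Serpinb2 (chr1:107511423-107535478, plus), Serpinb10 (chr1:107529003-107549271, plus) and Serpinb8 (chr1:107590006-107610484, plus) for the genes followed here. The chromosome 13 cluster spans 1160.7 kb and holds 15 clade B genes. Serpinb1a (chr13:32842092-32851185, minus), Serpinb9 (chr13:33003250-33017957, plus) and Serpinb6a lie in it. RefSeq promoter windows of 300 bases, from 250 before the start to 50 from it on, were matched by symbol for 9 of the 10 genes, in 12 windows, on build GRCm38.p6. Printed here are the windows of Serpinb11, whose e-cigarette libraries all lay above the air libraries, of Serpinb3a and Serpinb12, whose levels moved together from library to library, and of Serpinb2, which was called lower in smoke than in e-cigarette libraries. They run 5′ to 3′ on the strand of the gene. Capitals mark the TATA letters TATAAA and TGANTCA, a loose form of the AP-1 site, called the AP-1 letters here. The windows are chr1:107362064-107362363 (plus) for Serpinb11, chr1:107052254-107052553 (minus) for Serpinb3a, chr1:106934199-106934498 (plus, the first of 2) for Serpinb12 and chr1:107511173-107511472 (plus, the first of 2) for Serpinb2.
Serpinb11: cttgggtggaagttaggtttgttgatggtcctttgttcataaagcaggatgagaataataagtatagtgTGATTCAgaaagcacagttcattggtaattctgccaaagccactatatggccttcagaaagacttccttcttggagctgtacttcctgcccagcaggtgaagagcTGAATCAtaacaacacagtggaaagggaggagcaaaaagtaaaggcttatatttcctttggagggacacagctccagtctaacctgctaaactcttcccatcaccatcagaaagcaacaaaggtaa
Serpinb3a: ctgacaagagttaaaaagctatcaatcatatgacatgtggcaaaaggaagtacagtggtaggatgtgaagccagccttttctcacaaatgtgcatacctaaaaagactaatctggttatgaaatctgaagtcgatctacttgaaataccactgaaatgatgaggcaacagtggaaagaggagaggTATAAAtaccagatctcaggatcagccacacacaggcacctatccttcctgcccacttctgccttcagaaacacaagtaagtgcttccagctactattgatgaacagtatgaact
Serpinb12: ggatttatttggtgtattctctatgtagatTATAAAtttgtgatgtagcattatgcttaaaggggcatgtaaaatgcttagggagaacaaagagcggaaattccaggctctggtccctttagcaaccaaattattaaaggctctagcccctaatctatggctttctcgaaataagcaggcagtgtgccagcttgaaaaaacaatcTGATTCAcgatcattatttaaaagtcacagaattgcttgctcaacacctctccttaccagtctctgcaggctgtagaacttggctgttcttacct
Serpinb2: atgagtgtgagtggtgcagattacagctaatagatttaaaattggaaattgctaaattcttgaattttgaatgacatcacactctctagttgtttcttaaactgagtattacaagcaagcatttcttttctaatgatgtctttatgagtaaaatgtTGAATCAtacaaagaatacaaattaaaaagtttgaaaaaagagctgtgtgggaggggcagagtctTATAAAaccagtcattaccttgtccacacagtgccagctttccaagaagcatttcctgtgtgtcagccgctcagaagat
The RefSeq start of Serpinb11 lies downstream of the gene start in the count table, within the gene.

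Both strands of every window were searched for 4 sets of letters, and no match of one overlapped a match of another in the 12 windows. The AP-1 letters TGANTCA, which read the same on both strands, occurred in 7 of the 12 windows, belonging to 6 genes, against 7.81% of all 32851 RefSeq mouse promoter windows. These letters allow any middle base, in the 7.81% too, while the AP-1 site has C or G there. Only the matches of Serpinb8, TGAGTCA, had such a base. Those of Serpinb11, Serpinb12, Serpinb2, Serpinb5 and Serpinb10 read TGAATCA or TGATTCA. Positions count the first matched base from the start base as 0. The Serpinb11 window held the AP-1 letters at -181 and -76, the Serpinb12 window at -45 and the Serpinb2 window at -94. They also occurred at -140 for Serpinb5, at -54 for Serpinb10, and at -23 and 13 for Serpinb8. The Serpinb3a window held no AP-1 letters and had TATAAA at -65, while Serpinb2 had TATAAA at -29. TATAAA was present in 5 windows of 3 genes, against 13.6% of all windows. The 2 windows of Serpinb2 overlap and hold the same AP-1 letters and the same TATAAA, so each of these is counted in both windows. The letters TGACNNNGC of the antioxidant response element occurred in 2 windows, one of Serpinb12 and one of Serpinb6a, against 12.4% of all. GCGTG, the core bound by the aryl hydrocarbon receptor, occurred in 1 window of Serpinb6a, against 32.4% of all. These matches describe the letters, and binding was not measured.

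Library totals ran from 15868783 to 20306390 counts for smoke, 16697879 to 22469894 for e-cigarette and 15551432 to 17072677 for air. Read counts of the 10 genes summed over the libraries ran from 4033 for Serpinb10 to 81844 for Serpinb6a, and the lowest in any library was 41, for Serpinb3a. The libraries differed in what tissue they held. Summed transcripts of 12 thyroid follicle and C cell genes were 130 to 29492 CPM (counts scaled to a common library size) in the e-cigarette libraries, with 4 of them at 2942 or lower, and 59678 to 100069 CPM in the air libraries. Smoke libraries had 59341 to 96281 CPM of the same genes. Summed transcripts of 27 suprabasal squamous genes, such as Krt4 and Krt13, ran from 4010 to 23804 CPM in smoke, 7695 to 26452 CPM in e-cigarette and 3874 to 11636 CPM in air libraries. No gene of any marker list used here was at 0 in every library. In whole larynx RNA, fewer cells of a type and less RNA per cell cannot be told apart.

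Per kilobase of exon, so that genes can be set beside each other, Serpinb3a led the e-cigarette libraries with a mean of 121 CPM per kb and was followed by Serpinb11 with 96.8, Serpinb12 with 67.5 and Serpinb6a with 49.8. Smoke libraries had Serpinb11 first with 51.8 CPM per kb, then Serpinb3a with 44.8, Serpinb6a with 42.0 and Serpinb12 with 30.6. In the air libraries Serpinb6a came first with 51.1 CPM per kb, followed by Serpinb11 with 50.1, Serpinb3a with 47.0 and Serpinb12 with 35.2. These 4 genes stood at the top in every group, and in each group the ranges of neighbours among them overlapped. Serpinb10 was lowest in every group, with means of 2.87 CPM per kb in smoke, 4.50 in e-cigarette and 3.44 in air. Between the 4 leaders and Serpinb10 lay Serpinb2, Serpinb1a and Serpinb5, at 13.4 to 30.1 CPM per kb over the groups, and below them Serpinb8 and Serpinb9, at 5.14 to 8.09. In the air group every pair of neighbours overlapped in range. The e-cigarette order had gaps between Serpinb6a and Serpinb2 and between Serpinb5 and Serpinb8, and the smoke order had one between Serpinb8 and Serpinb10.

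**Figure D1:**
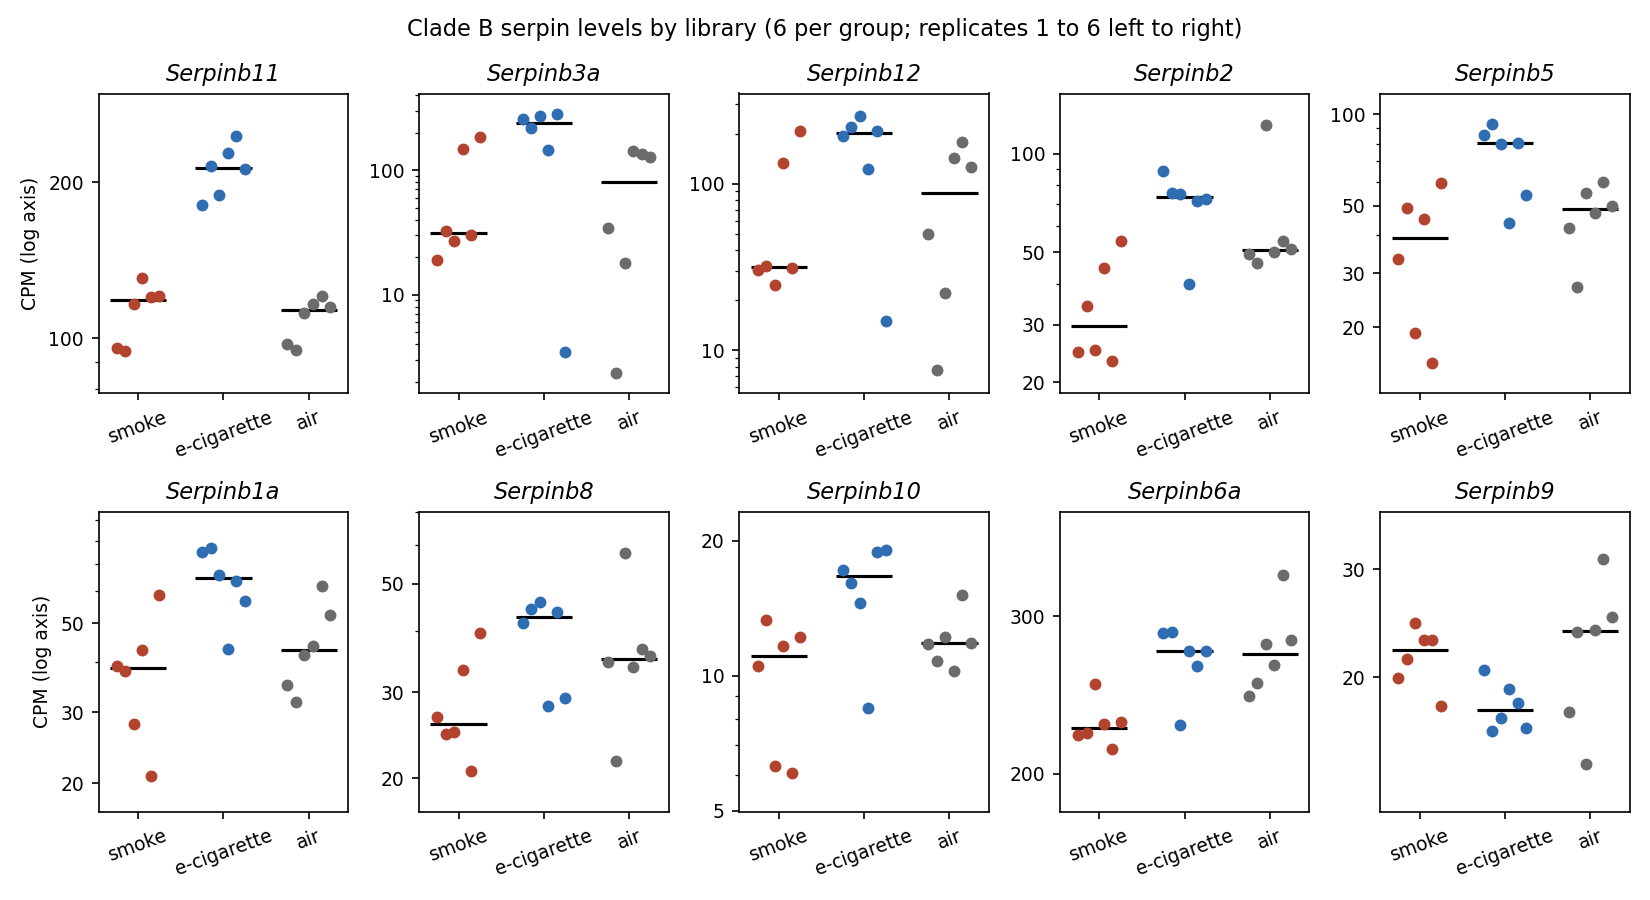
Each panel shows 1 gene, with CPM on a log axis, 1 point per library (6 per group, replicates 1 to 6 from left to right) and a line at the group median. Serpinb11 e-cigarette libraries, at 180.4 CPM or more, lie above all smoke and air libraries, while Serpinb3a and Serpinb12 fall into high and low libraries in every group.

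The human form of Serpinb11 lacks inhibitory activity, which need not hold for the mouse form. Serpinb11 was the gene whose e-cigarette libraries stood clear of the others. It had 180.4, 215, 189, 228, 246 and 212 CPM in e-cigarette replicates 1 to 6, against 97.6, 95.0, 112, 117, 121 and 115 CPM in air replicates 1 to 6. Smoke replicates 1 to 6 had 96.0, 94.6, 117, 131, 120.2 and 121 CPM. The lowest e-cigarette library was above the highest air and the highest smoke library, and smoke and air libraries overlapped throughout. Means were 113 ± 14.6 CPM in smoke, 212 ± 24.1 CPM in e-cigarette and 109.5 ± 10.7 CPM in air (SD, n = 6 each). In a single edgeR quasi-likelihood fit of all 18 libraries, with Benjamini-Hochberg adjustment over all genes, a gene was called at an adjusted p under 0.05. In that fit Serpinb11 was 1.93-fold higher in e-cigarette than in air (log2 fold change 0.95, SE 0.10, adjusted p = 3.27e-06). Smoke against air gave a log2 fold change of 0.05 (SE 0.10, adjusted p = 0.831), with a 95% interval of -0.15 to 0.24.

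The Serpinb11 difference moved with thyroid content. Within the e-cigarette group, the replicates with the most thyroid transcripts, 1 and 3, had the lowest Serpinb11 values, and all 6 still exceeded every air library. With group means removed, Serpinb11 and the thyroid score had a correlation of -0.54 over the 18 libraries, which share tissue, library preparation and scaling. With only e-cigarette replicates 1 and 3 kept, the log2 fold change of Serpinb11 over air was 0.73 (SE 0.13, edgeR adjusted p = 0.00483). With the thyroid score as a covariate it was 0.66 (SE 0.15) and no longer passed (adjusted p = 0.0706). With the covariate only 21 of all 17537 genes were called, against 4406 without it. No e-cigarette library reached the thyroid level of any air library, so the exposure and the thyroid content of a library cannot be told apart. Serpinb11 was little tied to squamous content: its correlation with the suprabasal score was 0.22, and with that score as a covariate its log2 fold change was 0.92 (SE 0.11, adjusted p = 1.51e-05).

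Against air, 1 of the 10 genes was called higher in e-cigarette libraries, namely Serpinb11, and none lower. Over all genes, 12.1% were called higher and 25.1% in either direction, so 1 in 10 is near the background. The groups did not overlap for 1 of the 10, again Serpinb11, against 10.5% of all genes. Values above 0 were found for 8 of 10, with a median log2 fold change of 0.45, against 0.0068 over all genes. Serpinb5, known as maspin and not an inhibitor, had 85.3, 92.9, 80.0, 43.9, 80.7 and 54.4 CPM in e-cigarette replicates 1 to 6, against 42.4, 27.03, 55.2, 47.4, 59.8 and 50.1 CPM in air replicates. The e-cigarette values of replicates 1, 2, 3 and 5 lay above every air library, and those of 4 and 6 fell among them. Its log2 fold change was 0.63 (SE 0.29) and did not pass (adjusted p = 0.128). Serpinb1a, an inhibitor of neutrophil elastase and cathepsin G, had 75.1, 76.9, 65.8, 43.1, 63.7 and 56.8 CPM in e-cigarette replicates, against 35.2, 31.9, 41.7, 43.9, 61.6 and 52.4 CPM in air replicates. Again the e-cigarette replicates 1, 2, 3 and 5 were above every air library, and the log2 fold change of 0.52 (SE 0.21) did not pass (adjusted p = 0.0804).

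Serpinb3a, an inhibitor of cysteine cathepsins related to the human squamous cell carcinoma antigens, spread widely within groups. It had 259.7, 218, 271, 146, 282 and 3.45 CPM in e-cigarette replicates 1 to 6, against 34.2, 2.36, 17.9, 142, 135 and 127 CPM in air replicates 1 to 6. Smoke replicates had 18.9, 32.3, 26.96, 147, 30.2 and 183 CPM. E-cigarette replicate 6 and air replicate 2 were far below the rest of their groups, and in smoke 2 libraries were high and 4 low. The log2 fold change over air was 1.36 in e-cigarette (SE 0.93, adjusted p = 0.309) and -0.07 in smoke (SE 0.92, adjusted p = 0.977). The 95% interval in e-cigarette, -0.46 to 3.18, reaches below 0. That value over air was 0.14 with the suprabasal squamous score as a covariate (adjusted p = 0.914) and 3.43 without air replicates 4, 5 and 6 (adjusted p = 0.0719). Serpinb12, whose human form inhibits trypsin-like proteases, split the same libraries. Its e-cigarette replicates had 192, 219, 254, 123, 208 and 15.1 CPM, against 50.2, 7.59, 22.1, 143, 178 and 126 CPM in air, and smoke replicates had 30.2, 32.1, 24.5, 133, 31.3 and 207 CPM. Smoke replicates 4 and 6 and air replicates 4, 5 and 6 were high for both genes, e-cigarette replicate 6 was low for both, and no comparison of Serpinb12 passed (adjusted p = 0.409 for e-cigarette and 0.915 for smoke, each over air).

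Air replicates 4, 5 and 6 also stood apart in other tissue. Summed transcripts of glandular acini were 1487 to 5868 CPM in them and 18651 to 26196 CPM in air replicates 1 to 3. Cartilage had 154 to 216 CPM in replicates 4 to 6 and 476 to 653 CPM in replicates 1 to 3. The list of neutrophils and marrow granulocytes had 1445 to 5624 CPM in replicates 4 to 6 and 11324 to 15534 CPM in replicates 1 to 3. Nearly all of that sum was Ltf, which is also in the list of secretory airway cells and averaged 8219 CPM in air. In smoke, Ltf alone had 11357 to 16609 CPM, against 11366 to 16624 CPM for the whole list. The sum therefore does not describe neutrophils. With group means removed, Serpinb3a had a correlation of -0.62 with the acinar score and -0.70 with that of secretory airway cells. Serpinb12 had -0.65 with the acinar and -0.73 with the secretory score. Correlations with the macrophage score were positive, 0.70 for Serpinb3a and 0.64 for Serpinb12. Without air replicates 4, 5 and 6, Serpinb12 stood at 2.65 in e-cigarette over air (log2 fold change, adjusted p = 0.0792).

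**Figure D2:**
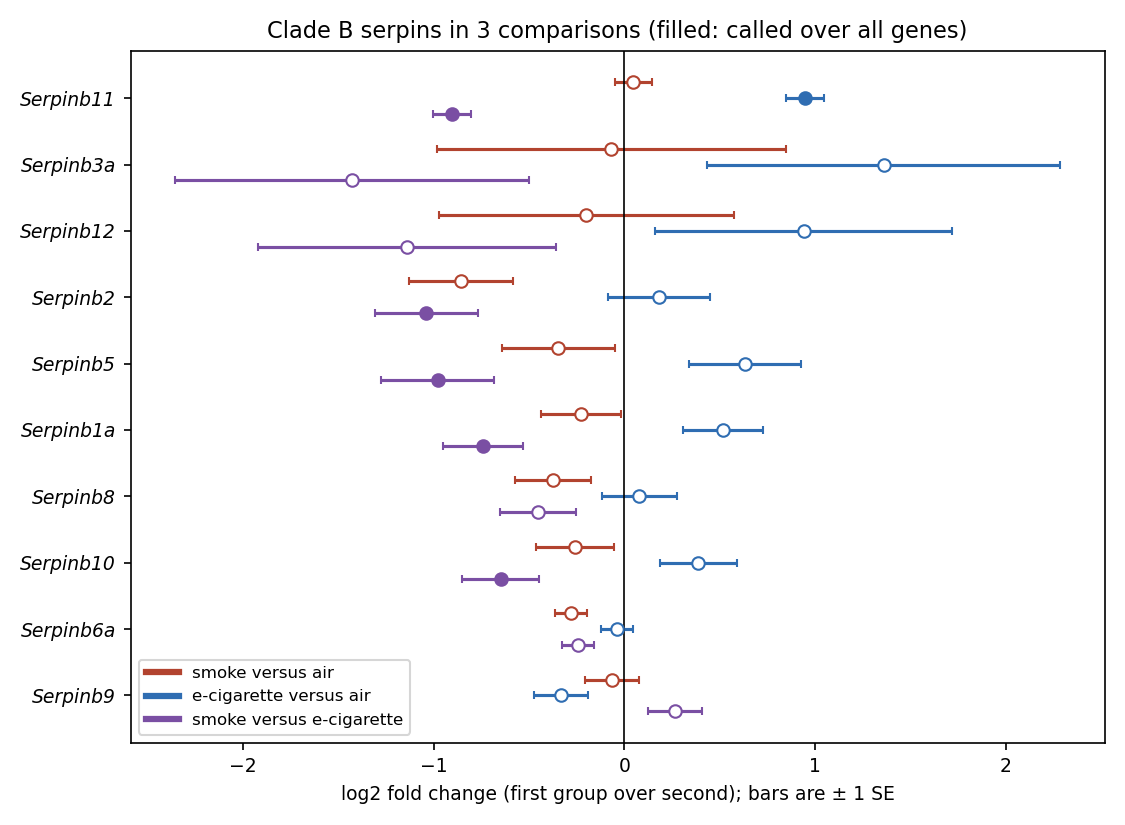
Log2 fold changes (x axis, first group over second) with bars of 1 SE for the 10 genes in 3 comparisons of 6 libraries per group, filled where the gene was called over all genes tested. The filled points are Serpinb11 at 0.95 in e-cigarette versus air and 5 genes below 0 in smoke versus e-cigarette, and the bars of Serpinb3a and Serpinb12 are the widest.

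Smoke set against e-cigarette gave the most calls. Of the 10 genes, 5 were called lower in smoke, namely Serpinb11, Serpinb2, Serpinb5, Serpinb1a and Serpinb10, and none higher, against 6.1% of all genes called lower and 16.5% in either direction. The groups did not overlap for 1 of the 10, Serpinb11, against 9.37% of all genes. The median log2 fold change was -0.82, with 9 of 10 below 0, against -0.0084 over all genes. This comparison shares the e-cigarette libraries with that against air, so the Serpinb11 values of both rest on the same 6 libraries. For Serpinb11 the log2 fold change of smoke over e-cigarette was -0.90 (SE 0.10, edgeR adjusted p = 2.12e-05).

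Serpinb2, or plasminogen activator inhibitor 2, which blocks urokinase, had 24.8, 34.2, 25.05, 44.8, 23.2 and 54.2 CPM in smoke replicates 1 to 6, against 88.7, 75.7, 75.2, 40.0, 71.5 and 72.7 CPM in e-cigarette replicates 1 to 6. All e-cigarette libraries but replicate 4 were above every smoke library. The log2 fold change was -1.04 (SE 0.27, edgeR adjusted p = 0.0147). Smoke values of Serpinb5 were 33.4, 49.3, 19.1, 45.2, 15.3 and 59.5 CPM, with replicates 3 and 5 lowest, and those replicates were also lowest for Serpinb1a, at 28.1 and 20.9 CPM, and for Serpinb10, at 6.30 and 6.06 CPM. The log2 fold change of smoke over e-cigarette was -0.98 for Serpinb5 (SE 0.30, adjusted p = 0.0313), -0.74 for Serpinb1a (SE 0.21, adjusted p = 0.0212) and -0.65 for Serpinb10 (SE 0.20, adjusted p = 0.033). DESeq2 called 6 of the 10 genes (3383 of 19582 genes in all) and voom 7 (4001 of 17537), the added ones being Serpinb6a in both and Serpinb8 in voom. In edgeR, Serpinb11 and Serpinb2 passed whichever single library was left out. Serpinb1a did not pass without smoke replicate 3 or e-cigarette replicate 2. Serpinb5 did not without smoke replicate 1, 3 or 5 or e-cigarette replicate 1, 2, 3 or 5, and Serpinb10 did not without smoke replicate 3 or 5 or e-cigarette replicate 1, 2, 5 or 6. Smoke replicates 3 and 5 also had the least suprabasal squamous transcripts of the smoke group, 4010 and 4448 CPM. Without them, an alternative chosen after seeing the data, Serpinb11 alone was called, at -0.95 (adjusted p = 0.000324), and the log2 fold changes were -0.85 for Serpinb2 (adjusted p = 0.0962), -0.65 for Serpinb5 (adjusted p = 0.0954), -0.52 for Serpinb1a (adjusted p = 0.102) and -0.41 for Serpinb10 (adjusted p = 0.187). Over all genes, 1430 of 17929 were called in that fit, against 2897 of 17537 with all libraries.

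With the suprabasal squamous score as a covariate, the log2 fold change of smoke over e-cigarette was -0.58 for Serpinb5 (SE 0.16, edgeR adjusted p = 0.0249), -0.78 for Serpinb2 (SE 0.22, adjusted p = 0.0238) and -0.48 for Serpinb1a (SE 0.14, adjusted p = 0.034), and Serpinb10 no longer passed at -0.51 (adjusted p = 0.106). In that fit Serpinb3a stood at -0.19 (SE 0.80), against -1.43 without the score, and Serpinb12 at -0.12 (SE 0.55), against -1.14 without it. With the thyroid score as a covariate no gene followed here was called in smoke versus e-cigarette, and 0 of all 17537 genes were, against 2897 without it. The log2 fold change in that fit was -1.39 for Serpinb2, -1.19 for Serpinb5, -0.98 for Serpinb1a, -0.85 for Serpinb10 and -0.63 for Serpinb11. Thyroid transcripts were 59341 to 96281 CPM in smoke and 130 to 29492 CPM in e-cigarette libraries, with no overlap. Exposure and thyroid content therefore cannot be told apart here either, and these values do not give a difference apart from thyroid content.

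Smoke against air gave no call among the 10 genes in the edgeR fit, against 1.59% of all genes, and the groups overlapped for all 10, against 2.43% of all genes that did not overlap. At an unadjusted p under 0.05 there were 2, Serpinb2 and Serpinb6a, beside 3485 of all genes. DESeq2 called 2 lower, the same pair, beside 999 of 16159 genes in all, and limma voom called 1, Serpinb6a, beside 1114 of 17537. The log2 fold changes were below 0 for 9 of 10, with a median of -0.24, against 0.0094 over all genes. Serpinb2 smoke libraries had 23.2 to 54.2 CPM with a median of 29.6, against 46.4 to 122 CPM with a median of 50.7 in air. All smoke libraries but replicate 6 lay below every air library, and air replicate 3, at 122 CPM, lay far above the other air libraries. The log2 fold change was -0.86 (SE 0.27, edgeR adjusted p = 0.1), and -0.87 with the suprabasal squamous score as a covariate, where it passed (SE 0.20, adjusted p = 0.0391).

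Serpinb2 moved about equally with 3 gene lists. With group means removed, its correlation over the 18 libraries was 0.67 with the score of 18 immediate early and NF-kB genes, 0.65 with the basal epithelial score and 0.66 with the suprabasal score. Air replicate 3, the highest for Serpinb2, had the highest summed immediate early transcripts, 1169.96 CPM, while air replicate 2, with 1049.6 CPM, had the lowest Serpinb2 of the air group, 46.4 CPM. The remaining air libraries had 430 to 557 CPM of those genes, against 327 to 458 CPM in smoke and 321 to 449 CPM in e-cigarette libraries. Of the 18 genes, 6 were called lower in smoke than in air, among them Fos (log2 fold change -2.06, adjusted p = 0.0282) and Areg (-3.19, adjusted p = 0.0386), and 6 were called lower in e-cigarette. Over all genes, 0.616% were called lower in smoke than in air and 13% lower in e-cigarette than in air. The part of the immediate early and NF-kB transcripts in the Serpinb2 values was not tested.

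Serpinb6a, an inhibitor of cathepsin G, had narrow ranges within groups. It had 213 to 252 CPM in smoke, 227 to 289 CPM in e-cigarette and 244 to 334 CPM in air libraries, with medians of 225 CPM in smoke, 274 CPM in e-cigarette and 272 CPM in air. All smoke libraries but replicate 3 were below every air library. The log2 fold change of smoke over air was -0.28 (SE 0.08, edgeR adjusted p = 0.0803), and that of smoke over e-cigarette was -0.24 (SE 0.08, adjusted p = 0.0539). The smoke and e-cigarette difference passed with DESeq2 (-0.25, adjusted p = 0.0144) and voom (-0.24, adjusted p = 0.0188). Exons of Serpinb6a overlap those of 3 genes on the other strand, 1110046J04Rik, Nqo2 and Ripk1, over 10.8%, 14.1% and 4.46% of their length. The library kit does not mark strand, and how reads in the shared stretches were counted is not stated. Reads of those genes may therefore be among its counts, or its own reads there may be missing from them. Serpinb9, an inhibitor of granzyme B, had 18.0 to 24.5 CPM in smoke, 16.3 to 20.5 CPM in e-cigarette and 14.4 to 31.1 CPM in air libraries. The e-cigarette values fell within the air range, and the log2 fold change of -0.33 (SE 0.14) did not pass in edgeR (adjusted p = 0.0899), but did in voom (-0.37, adjusted p = 0.0343), and in edgeR without air replicate 1 or without air replicate 3. Its correlation with the basal epithelial score was -0.91, the lowest of any gene and list compared. Gzmb, which encodes granzyme B, had 109 reads in all, too few to test, and summed T and NK cell transcripts were only 4.48 to 7.43 CPM in smoke, 4.46 to 7.502 CPM in e-cigarette and 5.11 to 8.31 CPM in air.

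Serpinb8, an inhibitor of furin, had 20.7 to 39.7 CPM in smoke, 28.1 to 45.8 CPM in e-cigarette and 21.7 to 57.9 CPM in air libraries, and no comparison passed in edgeR. In voom smoke over e-cigarette passed (log2 fold change -0.45, adjusted p = 0.0488). The values overlapped in all 3 groups, with air replicate 3 highest. Serpinb10, or bomapin, is known from haematopoietic cells in humans, and the annotation calls the mouse gene a polymorphic pseudogene. It had 6.06 to 13.3 CPM in smoke, 8.47 to 19.1 CPM in e-cigarette and 10.2 to 15.1 CPM in air libraries. Its exons overlap Serpinb2 on the same strand over 291 bases, which is 8.34% of Serpinb10 exon length and 12.4% of that of Serpinb2, and reads there cannot be told apart. Of the stretches of 50 bases in the transcripts of Serpinb3a, 6.51% also occurred in another family gene, mostly Serpinb3b, and for Serpinb1a it was 2.81%, mostly Serpinb1c. Serpinb11, Serpinb12, Serpinb5 and Serpinb8 shared no such stretch.

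The spread of the genes within groups followed the squamous content of the libraries for some members and not for others. With group means removed, the correlation of log2 CPM with the suprabasal squamous score over the 18 libraries was 0.90 for Serpinb8, 0.87 for Serpinb5, 0.81 for Serpinb12, 0.79 for Serpinb1a and 0.78 for Serpinb3a. It was 0.66 for Serpinb2, 0.49 for Serpinb10 and 0.22 for Serpinb11, near 0 for Serpinb6a at 0.05, and below 0 for Serpinb9 at -0.26. These libraries share tissue and scaling, so the correlations describe them only. The score rests on 27 genes that exclude the serpins. Smoke replicate 6 had the most suprabasal transcripts of its group, 23804 CPM, and the highest smoke values of Serpinb3a, Serpinb12, Serpinb2, Serpinb5, Serpinb1a and Serpinb8. It was not the highest for Serpinb11, Serpinb6a or Serpinb10, and it had the lowest smoke value of Serpinb9, 18.0 CPM. Of the 27 genes, 0 were called in smoke versus air by edgeR, DESeq2 or voom, with 1 at an unadjusted p under 0.05. By edgeR 2 were called higher in e-cigarette than in air, Dsc2 (log2 fold change 0.86, adjusted p = 0.017) and Dsg3 (1.03, adjusted p = 0.0315), and 1 was called lower in smoke than in e-cigarette, Dsc2 (-0.78, adjusted p = 0.0408). Over all genes 12.1% were called higher in e-cigarette than in air and 6.1% lower in smoke than in e-cigarette. Their median log2 fold change was 0.05 in smoke over air, 0.79 in e-cigarette over air and -0.75 in smoke over e-cigarette. With the squamous score as a covariate, the log2 fold change of e-cigarette over air was -0.20 for Serpinb12 (0.94 without it), -0.22 for Serpinb8 (0.08 without it) and -0.09 for Serpinb2 (0.18 without it), and none of these passed.

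**Figure D3:**
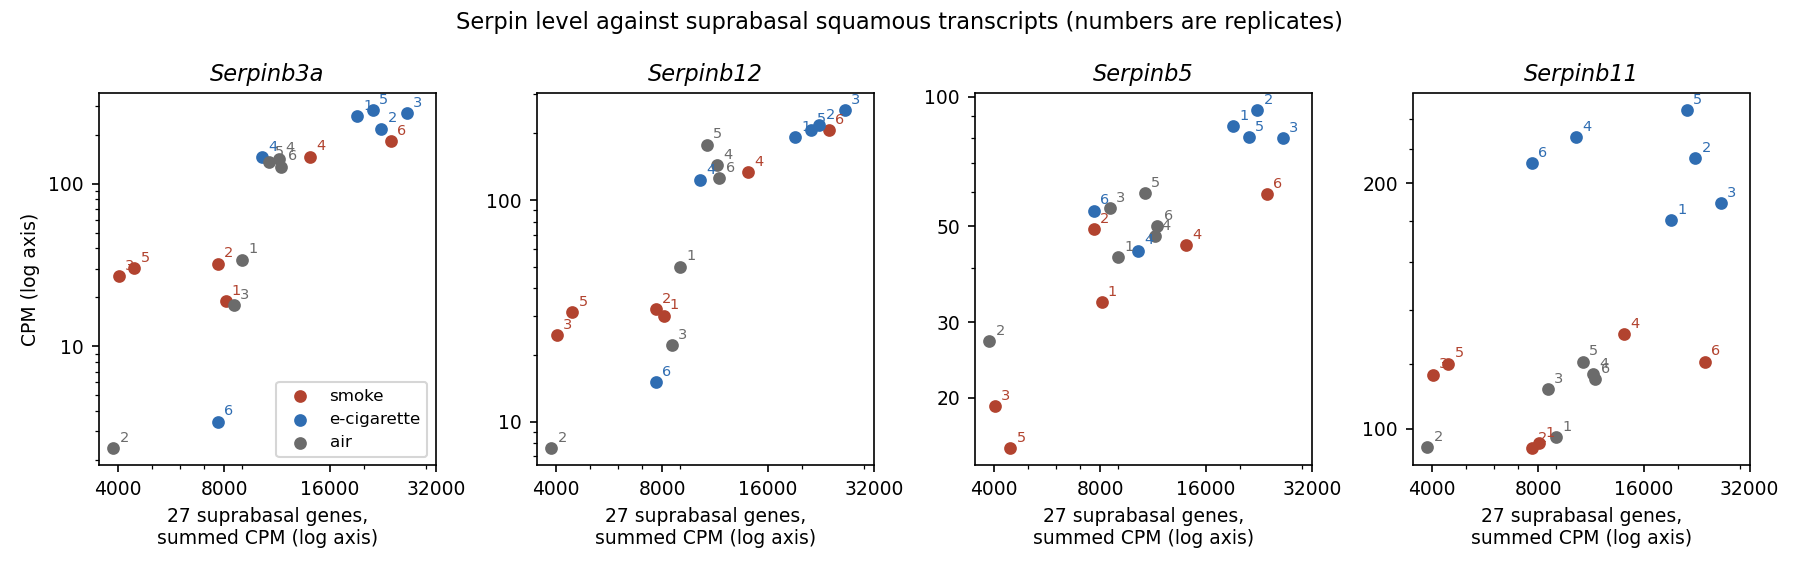
CPM of 4 serpins (y axis, log) against summed CPM of 27 suprabasal squamous genes (x axis, log) in the 18 libraries, coloured by group and numbered by replicate. Serpinb3a, Serpinb12 and Serpinb5 climb with squamous content across groups, while the 6 e-cigarette libraries of Serpinb11 lie above the others at any squamous content.

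**Figure D4:**
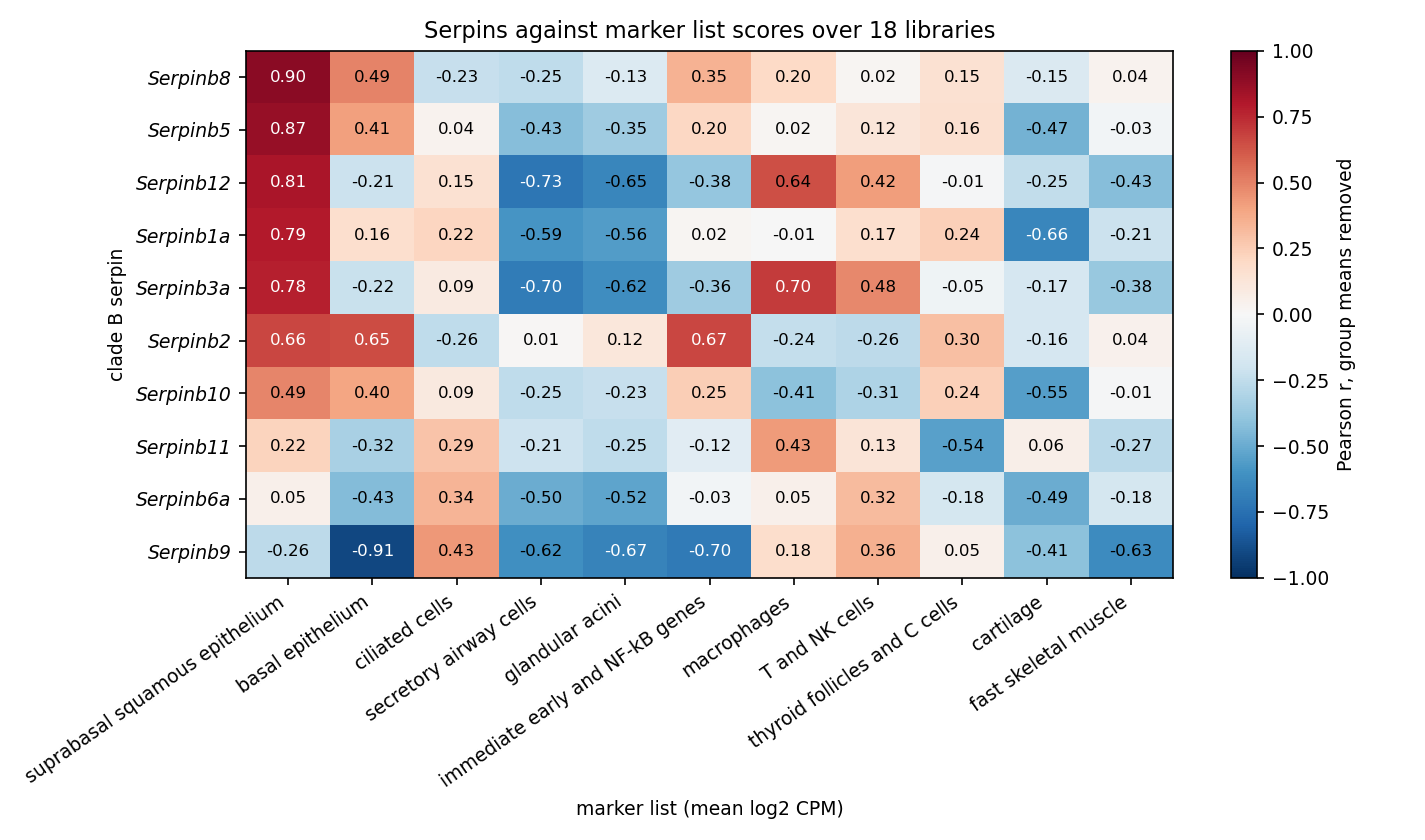
Pearson correlations, with group means removed, of log2 CPM of each serpin (vertical axis) with the mean log2 CPM of marker lists (horizontal axis) over 18 libraries. Serpinb8 with the suprabasal list reaches 0.90 and Serpinb9 with the basal list -0.91.

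Genes whose levels followed each serpin most closely were sought among 15198 protein-coding genes outside the family, again with group means removed over the 18 libraries. For Serpinb3a they were Dsg1a, a desmosomal cadherin of squamous cells, Rptn and Klk7, a peptidase of the cornified layer, each at 0.99. Serpinb12 was closest to Lce1f, Teddm3 and Dmkn, each at 0.99. Those of Serpinb5 were Klk11 (0.96), Chit1 (0.95) and Dsc3 (0.94), those of Serpinb1a were Csta1 (0.97), Calml3 (0.95) and Gsta4 (0.94), and those of Serpinb8 were Sprr1a (0.92), Tgm1 (0.91) and Stn1 (0.90). Serpinb2 was nearest to Il1rn, which encodes the interleukin 1 receptor antagonist (0.92), Arpc2 (0.89) and Chic2 (0.89). Serpinb10 was nearest to Pclaf (0.89), Grid2ip (0.87) and Atp1b3 (0.84). Serpinb6a was nearest to Prdx1 (0.84), Psmc6 (0.83) and 1700013F07Rik (0.82), and Serpinb9 to Snx7, Zfp984 and Ercc6l2, each at 0.92. Serpinb11 had no close partner, the nearest being Cybb (0.76), Cxadr (0.75) and Cdc73 (0.75). Within the family, Serpinb12 with Serpinb7 and with Serpinb3a gave 0.98 each, and the 10 pairs among Serpinb3a, Serpinb12, Serpinb13, Serpinb3b and Serpinb7, all in the chromosome 1 cluster, gave 0.88 to 0.98. Serpinb5 and Serpinb1a, on different chromosomes, gave 0.91.

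The table holds 17 other protein-coding clade B genes, of which 6 had enough counts to test, 3 had no count in any library and the most abundant untested one had 115 counts in all. The tested ones were Serpinb6b, Serpinb7, Serpinb1c, Serpinb1b, Serpinb3b and Serpinb13, and the highest of them, Serpinb6b, averaged 12.6 CPM. None was called in smoke versus air or in smoke versus e-cigarette by edgeR, against 1.59% and 16.5% of all genes. At an unadjusted p under 0.05, Serpinb6b and Serpinb1b were lower in smoke than in air, beside 3485 of all genes at that p. Serpinb1c and Serpinb6b were lower in smoke than in e-cigarette, beside 5156 of all genes. DESeq2 called 1 of them in each of those comparisons, and voom called 1 in smoke versus air and 2 in smoke versus e-cigarette. Over all genes DESeq2 called 999 of 16159 in smoke versus air and 3383 of 19582 in smoke versus e-cigarette. Voom called 1114 and 4001 of 17537 there. In e-cigarette versus air, Serpinb1c was called higher, with 4.19, 5.32, 3.35, 3.83, 3.46 and 3.64 CPM in e-cigarette replicates 1 to 6, against 1.56, 2.30, 1.92, 2.75, 3.13 and 3.04 CPM in air replicates 1 to 6. All its e-cigarette libraries were above every air library, and the log2 fold change was 0.69 (SE 0.23, adjusted p = 0.0304). It was 1 of the 6 tested, against 12.1% of all genes called higher and 25.1% called in either direction. The groups did not overlap for 1 of the 6, again Serpinb1c, against 10.5% of all genes. Serpinb7, the human form of which is mutated in a palmoplantar keratosis, had 1.29 to 8.94 CPM in e-cigarette and 0.460 to 5.24 CPM in air libraries, with the same low e-cigarette replicate 6 as Serpinb3a, and did not pass (log2 fold change 1.06, SE 0.60, adjusted p = 0.216).

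Proteases that clade B serpins or their relatives are known to meet were listed too, 25 in all, of which 20 were tested. None was called in smoke versus air by edgeR, with 2 at an unadjusted p under 0.05, while DESeq2 and voom called 2 each. Of all 17537 genes, edgeR called 279 in that comparison, and 3485 had an unadjusted p under 0.05. DESeq2 called 999 of 16159 and voom 1114 of 17537. Against air, 3 were called higher in e-cigarette, namely Plat, the tissue plasminogen activator (log2 fold change 0.42, adjusted p = 0.0385), Casp1, which encodes a caspase (0.53, adjusted p = 0.0125) and Tmprss11e, a serine protease of squamous epithelium (0.69, adjusted p = 0.0483). Called lower were 5, namely the cathepsins Ctsl (-0.72, adjusted p = 5.25e-05) and Ctss (-0.46, adjusted p = 0.0254) and the membrane serine proteases Prss8 (-0.64), St14 (-0.68) and Tmprss2 (-0.61). Over all genes 12.1% were called higher and 13% lower in that comparison. Ctsl, a target of the human relatives of Serpinb3a, had 193 to 272 CPM in e-cigarette and 329 to 453 CPM in air libraries, with no overlap. Between smoke and e-cigarette, Ctsl, Ctsb, Prss8 and St14 were called higher in smoke and Casp1 and Tmprss11e lower, against 10.4% of all genes higher and 6.1% lower. Plau, the urokinase that Serpinb2 blocks, averaged 11.4 CPM in smoke, 11.0 CPM in e-cigarette and 9.94 CPM in air libraries and passed in no comparison. The neutrophil proteases Elane, Prtn3 and Ctsg had 49, 53 and 21 counts over all libraries, and Plg had 3, too few to test. With the thyroid score as a covariate 0 of the proteases were called in any comparison, and without e-cigarette replicates 2, 4, 5 and 6 there were 2 in e-cigarette versus air.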

How the data were processed

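RNA of whole mouse larynges was sequenced in 18 libraries, 6 per exposure. Per the submitters' processing notes, reads were aligned with STAR (version not given) to GRCm38 (mm10) and counted per gene with featureCounts 1.5.0-p3. The authors deposited raw counts of 54532 genes, whereas the annotation release and strand setting used for counting are not stated by any source read here. Per the labels, the library kit was NEBNext Ultra, which does not mark strand. Genes were filtered with filterByExpr (minimum count 10, minimum total 15), normalised by TMM and fitted in 1 model of the 3 groups with the robust quasi-likelihood test of edgeR 4.0.16 in R 4.3.3. A gene was called at a Benjamini-Hochberg adjusted p under 0.05 over all 17537 genes tested. CPM use TMM library sizes, and list scores are mean log2 CPM with a prior count of 2. The serpins and the gene lists were chosen with earlier results of these data known. Named are all 10 serpins, other clade B genes that were called or most abundant, called or most abundant list genes, and for each serpin the 3 genes most correlated with it. Fits were tested on simulated data. Libraries of a group differed beyond sampling noise in all 45 pairs (chi-square over its degrees of freedom at least 16.5). Same-numbered libraries correlated at -0.45 to 0.16 with group means removed, over 0.1 in 3 of 18 pairs. Tissue content also enters these values and differently numbered pairs were not compared, so they cannot settle whether the numbers pair libraries. Alternatives were DESeq2 1.42.0, voom of limma 3.58.1, other scalings, no filter, fits of 2 groups, a replicate block, tissue scores as covariates and libraries left out.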

Additional observations from a re-analysis of the deposited data

Results flagged for a closer look

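Within the 6 libraries of a group, the gap between an end library and its neighbour was divided by the range, on untransformed CPM. It passed the cutoff of 0.625 in 2 of 30 sets of values (10 serpins in 3 groups), and chance gives about 1 in 20 sets. On this scale a low library in a widely spread group is hard to flag. Serpinb3a in e-cigarette replicate 6, at 3.45 CPM against 146 to 282 CPM in the others, was not flagged. Both flagged libraries concerned Serpinb2, the urokinase inhibitor. E-cigarette replicate 4 had 40.0 CPM, against 71.5 to 88.7 CPM in the other e-cigarette libraries, and it also had the second lowest suprabasal squamous transcripts of its group, 10257 CPM. Air replicate 3 had 122 CPM, against 46.4 to 54.2 CPM in the other air libraries, and it had the highest summed immediate early and basal epithelial transcripts of its group, 1169.96 and 4685 CPM. Without any single library, the log2 fold change of Serpinb2 in smoke over air ran from -1.05 to -0.56, and in smoke over e-cigarette from -1.21 to -0.94.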

How the results depend on the processing

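Of 31 alternatives, Serpinb11 passed in 30 for e-cigarette over air (log2 fold change 0.66 to 1.06) and in 29 for smoke over e-cigarette, the exceptions being tissue scores as covariates. The serpins called in smoke versus air numbered 2 with DESeq2, 1 with voom and 1 with the squamous covariate. They numbered 0 whichever library was left out. Over all genes, 999 of 16159 were called with DESeq2, 1114 with voom and 331 with the squamous covariate, against 279 in the main fit. Leaving out any single library gave 50 to 562 over all genes. In e-cigarette versus air the serpins called numbered 2 with voom, 3 in the fit of 2 groups, 0 with the thyroid score, 2 without air 4, 5 and 6, 3 without smoke 3 and 5 and 1 to 2 without any single library. Over all genes, 4301 were called with voom, 3607 of 16992 in the fit of 2 groups and 21 with the thyroid score, against 4406 in the main fit. There were 4539 of 18130 without air 4, 5 and 6, 4343 of 17929 without smoke 3 and 5 and 3678 to 4425 without any single library. In smoke versus e-cigarette the serpins called numbered 6 with DESeq2, 7 with voom, 3 with no filter, 3 with the replicate block (without Serpinb5, adjusted p = 0.085, and Serpinb10, 0.064), 0 with the thyroid score or 4 tissue scores, 1 without e-cigarette 2, 4, 5 and 6, 1 without smoke 3 and 5 and 2 to 6 without any single library (2 without e-cigarette 2). Over all genes, 2897 were called in the main fit, 3383 of 19582 with DESeq2, 4001 with voom, 2275 of 35370 with no filter and 2386 with the block. None was called with the thyroid score or 4 tissue scores. There were 147 of 18522 without e-cigarette 2, 4, 5 and 6 and 1430 of 17929 without smoke 3 and 5. Without any single library there were 2113 to 3237, the fewest without e-cigarette 2. Of the other clade B genes, smoke versus air called 1 with DESeq2 or voom and 0 to 1 without a library. E-cigarette versus air called 0 with the thyroid, squamous or 4 tissue scores or without e-cigarette 2, 4, 5 and 6, 3 without air 4, 5 and 6, and 0 to 1 without a library. Over all genes, 3839 were called with the squamous score, 406 with 4 tissue scores and 688 of 18522 without e-cigarette 2, 4, 5 and 6. Smoke versus e-cigarette called 1 with DESeq2, 2 with voom, 1 in the fit of 2 groups, 1 without air 4, 5 and 6, and 0 to 1 without a library. Over all genes, 3455 of 17121 were called in the fit of 2 groups and 3375 of 18130 without air 4, 5 and 6.

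Except for Serpinb9 in e-cigarette over air, which passed with voom and without air 1 or air 3, direction turned only in values that passed in no fit. For smoke over air, Serpinb3a stood at 0.025 with the replicate block, 0.50 with 4 tissue scores, 1.99 without air 4, 5 and 6, 0.29 without smoke 3 and 5 and -0.60 to 0.20 without a library. Serpinb12 stood at 0.24, 1.498, 0.17 and -0.81 to 0.13 in the last 4 of those, Serpinb1a at 0.12 and 0.046 and Serpinb9 at 0.18 and 0.20 with 4 scores and without air 4, 5 and 6, and Serpinb10 at 0.23 with 4 scores. Serpinb9 ran from -0.18 to 0.047 and Serpinb11 from -0.012 to 0.091 without a library, and Serpinb11 was -0.012 without smoke 3 and 5. For e-cigarette over air, the squamous covariate gave -0.088 for Serpinb2, -0.20 for Serpinb12 and -0.22 for Serpinb8, and 4 scores gave 0.061 for Serpinb9. Without air 4, 5 and 6, Serpinb2 was -0.049 and Serpinb6a 0.051. Without a library, Serpinb8 ran from -0.034 to 0.24 and Serpinb6a from -0.073 to 0.023. The cause of these turns was not tested. The replicate block ended no other edgeR call of the 10 serpins.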
